A study of Mus musculus with 2 samples.

Results

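Voltage-gated calcium channels open when the membrane is depolarised and let calcium into the cell. Each is built around 1 large pore protein, the alpha1 subunit, which the 8 genes described here encode. They are Cacna1a, Cacna1b, Cacna1c, Cacna1d, Cacna1e, Cacna1g, Cacna1h and Cacna1i. They were found by symbol among the 55536 mouse genes of the tables, and all 8 were present. Their levels and transcript models were examined in total RNA from hippocampal tissue of male B6CASTF1/J mice, F1 hybrids of C57BL/6J and CAST/EiJ, aged 36 days. There was 1 group of 2 libraries, biological replicates 1 and 2, each from 300 ng of RNA with ERCC spike-in transcripts, and no treatment, so no condition could be compared. Both samples have the same donor identifier and different biosamples in the labels. They were read as 2 animals, and the labels do not say which part of the hippocampus was dissected.

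The pore genes fall into 3 classes. The Cav1 class gives the L-type channels (Cacna1c, Cacna1d), which respond to dihydropyridine drugs and couple activity to gene expression in neurons. The Cav2 class gives the P/Q-type (Cacna1a), N-type (Cacna1b) and R-type (Cacna1e) channels, of which the P/Q- and N-type trigger transmitter release at most central synapses. The Cav3 class gives the T-type channels (Cacna1g, Cacna1h, Cacna1i), which open at small depolarisations and support burst firing. Cav1 and Cav2 pores work with beta and alpha2delta subunits, which help bring them to the membrane, and the pore proteins are varied further by alternative exons.

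Replicate 1 held 28786216 expected counts and replicate 2 held 29755033. An expected count is the authors' estimate of the reads that belong to a gene. All 8 genes had whole expected counts (within 0.005) in both libraries with a posterior standard deviation of 0, so none shared reads with another gene in the authors' assignment. Of the broad markers, the 4 genes of excitatory neurons summed to 2613.04 TPM (a relative level corrected for transcript length, whose sum is the same in every library) in replicate 1 and 2613.43 TPM in replicate 2. The 5 markers of field CA1 summed to 274.73 and 228.76 TPM, the 5 of CA3 to 134.66 and 135.88 TPM, and the 5 of dentate granule cells to 119.62 and 148.73 TPM. Markers of these hippocampal fields were therefore all detected. Markers of the choroid plexus, a tissue next to the hippocampus, summed to 8.58 TPM in replicate 1 and 190.74 TPM in replicate 2, of which Ttr made up 3.62 and 179.24 TPM.

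Among the annotated coding models were 4 pairs of neighbouring exons of equal length of which most models carry exactly 1. They are shown because the choice within each pair changes the pore protein while keeping its length. In addition, the long coding models of Cacna1c and Cacna1d used the 104-base pair differently. All lie on the minus strand of mm10 and are written 5′ to 3′ from the GENCODE M21 transcript sequences. Capitals mark the bases at which the exons of a pair differ.

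Cacna1c 84-base pair, upstream exon, chr6:118638427-118638510: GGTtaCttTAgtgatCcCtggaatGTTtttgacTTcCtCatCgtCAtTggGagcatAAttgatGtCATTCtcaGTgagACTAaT
Cacna1c 84-base pair, downstream exon, chr6:118637730-118637813: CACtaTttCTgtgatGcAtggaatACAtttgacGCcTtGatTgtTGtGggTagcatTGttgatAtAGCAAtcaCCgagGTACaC
Cacna1c 60-base pair, upstream exon, chr6:118674555-118674614: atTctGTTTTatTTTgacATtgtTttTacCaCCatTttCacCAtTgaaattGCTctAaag
Cacna1c 60-base pair, downstream exon, chr6:118674346-118674405: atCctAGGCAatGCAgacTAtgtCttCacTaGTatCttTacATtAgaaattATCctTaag
Cacna1c 104-base pair, upstream exon, chr6:118742265-118742368: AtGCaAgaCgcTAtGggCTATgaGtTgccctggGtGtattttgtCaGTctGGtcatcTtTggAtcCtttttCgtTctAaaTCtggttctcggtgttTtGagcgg
Cacna1c 104-base pair, downstream exon, chr6:118741871-118741974: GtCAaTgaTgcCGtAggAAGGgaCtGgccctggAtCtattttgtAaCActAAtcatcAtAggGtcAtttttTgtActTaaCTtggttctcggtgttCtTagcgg
Cacna1d 104-base pair, upstream exon, chr14:30171956-30172059: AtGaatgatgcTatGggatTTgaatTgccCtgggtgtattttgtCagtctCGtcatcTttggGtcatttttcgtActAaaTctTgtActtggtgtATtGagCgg
Cacna1d 104-base pair, downstream exon, chr14:30171296-30171399: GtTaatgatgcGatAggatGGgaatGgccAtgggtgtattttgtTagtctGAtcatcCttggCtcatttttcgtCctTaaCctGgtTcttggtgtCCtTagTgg

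The exons of the 84-base pair differed at 35 bases, those of the 60-base pair at 25, and those of the 104-base pairs at 32 in Cacna1c and 22 in Cacna1d. Between the genes, exons of the 104-base pairs were most alike in the same position. The upstream exon of Cacna1c was identical to the upstream exon of Cacna1d at 86.5% of bases and to its downstream exon at 75.0%. The downstream exon of Cacna1c was identical to the downstream exon of Cacna1d at 79.8% and to its upstream exon at 72.1%. These identities describe the reference and do not depend on the libraries.

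The proteins encoded by the leading complete models were compared by gapped global alignment of their translations. Identity was taken over aligned residues, whereas the exons were compared base by base. The proteins ranged from 2169 residues (Cacna1c-207) to 2368 residues (Cacna1a-201). Cacna1c and Cacna1d shared 71.4% of aligned residues. The 3 pairs within Cav2 shared 63.6% to 67.9% and the 3 within Cav3 62.3% to 65.0%. Between Cav1 and Cav2 identity was 45.6% to 48.2%, and between Cav3 and either of the other classes it was 32.9% to 36.6%. The motif known as the alpha interaction domain, through which beta subunits bind the pore, was found 1 time in each of the 5 Cav1 and Cav2 proteins and 0 times in the 3 Cav3 proteins.

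All 8 genes were expressed above 15 TPM in both libraries. In the gene table, Cacna1e stood highest and Cacna1i lowest, 5.06-fold apart by their means. Among 22028 protein-coding genes ranked by mean TPM, Cacna1e was number 897 and Cacna1i number 5551. The tissue is a mixture of cells, so fewer cells of a type and less RNA per cell cannot be told apart for any of these levels. P-values between the libraries, given further on, measure only the spread of reads between these libraries.

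Of the Cav2 genes, Cacna1e (ENSMUSG00000004110.16, chr1:154390731-154884501, minus strand), which encodes the R-type pore, stood at 91.60 TPM (replicate 1) and 92.12 TPM (replicate 2), a mean of 91.9 ± 0.37 TPM (SD, n = 2). It also held the most reads, 21770 and 22802 expected counts. Cacna1a (ENSMUSG00000034656.17, chr8:84388440-84640246, plus strand), the P/Q-type pore, had 84.81 and 88.49 TPM, a mean of 86.7 ± 2.6 TPM, from 7048 and 7382 counts. Its 2 values both lay below those of Cacna1e. Cacna1b (ENSMUSG00000004113.18, chr2:24603887-24763152, minus strand), the N-type pore, had 33.51 and 30.76 TPM, a mean of 32.1 ± 1.9 TPM, from 5320 and 5240 counts. The N-type gene was thus the lowest of the class in both libraries.

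Of the Cav3 genes, Cacna1h (ENSMUSG00000024112.16, chr17:25374285-25433783, minus strand) stood at 41.67 TPM (replicate 1) and 50.22 TPM (replicate 2), a mean of 45.9 ± 6.0 TPM (SD, n = 2), from 5098 and 6155 counts. This was the widest spread of the 8. Cacna1g (ENSMUSG00000020866.17, chr11:94408391-94474198, minus strand) had 32.17 and 32.03 TPM, a mean of 32.1 ± 0.099 TPM, from 2772 and 2713 counts. Cacna1i (ENSMUSG00000022416.15, chr15:80287238-80398279, plus strand) had 18.98 and 17.34 TPM, a mean of 18.2 ± 1.2 TPM, from 3128 and 3185 counts. The ranges of the 3 T-type genes did not overlap.

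Of the Cav1 genes, Cacna1c (ENSMUSG00000051331.15, chr6:118587240-119196418, minus strand) stood at 34.92 TPM (replicate 1) and 36.75 TPM (replicate 2), a mean of 35.8 ± 1.3 TPM (SD, n = 2), from 6249 and 6841 counts. Cacna1d (ENSMUSG00000015968.17, chr14:30039939-30491455, minus strand) had 22.92 and 23.72 TPM, a mean of 23.3 ± 0.57 TPM, from 2351 and 2487 counts, the fewest reads of the 8. Cacna1c was above Cacna1d in both libraries.

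By mean TPM the order was Cacna1e, Cacna1a, Cacna1h, Cacna1c, Cacna1b, Cacna1g, Cacna1d and Cacna1i. Of the 7 neighbouring pairs in that order, only Cacna1b and Cacna1g had overlapping ranges. With 2 libraries, an exact permutation test of neighbours cannot reach the threshold of 0.05, and none was run. By class, Cav2 genes held 58.2% of the summed TPM of the 8 in replicate 1 and 56.9% in replicate 2, Cav3 genes held 25.7% and 26.8%, and Cav1 genes 16.0% and 16.3%.

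**Figure D1:**
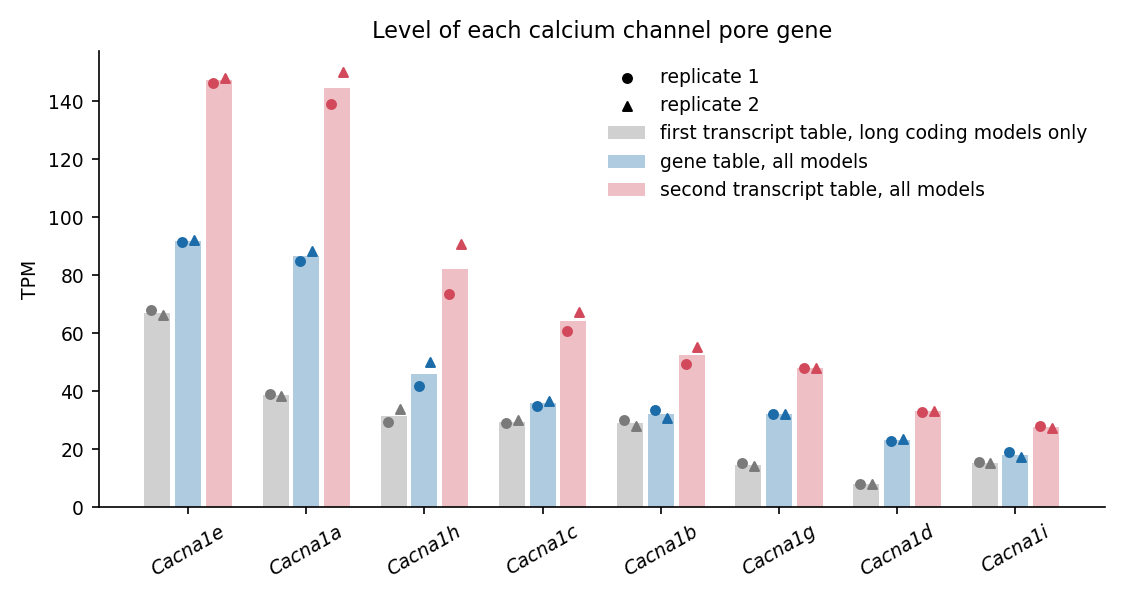
TPM (vertical axis) of the 8 pore genes, in order of mean TPM in the gene table. Bars are means of 2 libraries, circles replicate 1 and triangles replicate 2, for long coding models only, for all models in the gene table and for all models in the second transcript table. Cacna1a lies near Cacna1e when all models are summed and well below it on long coding models.

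The gene level depended on which annotated models were summed. The 8 genes have 100 models, of which 53 are long coding models, taken here as protein-coding with at least 4000 coding bases, and the rest are short coding, retained-intron, nonsense-mediated decay or other noncoding models. A short model needs few reads to reach a high TPM. In Cacna1a, long models held 88.9% and 87.6% of the expected counts in replicates 1 and 2 and 46.0% and 43.4% of the TPM. The noncoding model Cacna1a-210, 549 bases long, held 25.1% and 26.4% of the gene's TPM from 197 and 227 counts.

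Cacna1g was alike, with 91.2% and 90.4% of counts and 47.5% and 44.1% of TPM in long models. Its noncoding models Cacna1g-212, Cacna1g-214 and Cacna1g-215, each under 800 bases, held 16.7% and 19.8%, 14.6% and 16.8%, and 12.6% and 9.40% of TPM in replicates 1 and 2. Of the bases of Cacna1g-212 and Cacna1g-214, 66.8% and 77.7% lie outside the exons of every long model of the gene. For Cacna1g-215 this was 0%, and for Cacna1a-210, set against the long models of Cacna1a, 17.7%. In Cacna1b the long models held 89.6% and 91.0% of TPM and over 99% of counts.

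In Cacna1d, long models held 46.2% and 45.8% of counts in replicates 1 and 2 of the first transcript table, with 35.6% and 34.5% of TPM. In the second they held 54.3% and 54.1% of counts and 41.3% and 42.0% of TPM. These shares of counts were the lowest of the 8 genes in either table. The 4 retained-intron models of Cacna1d held 24.5% and 23.7% of counts and 44.6% and 40.6% of TPM in the first table. In the second they held 7.25% and 7.80% of counts and 30.4% and 27.6% of TPM, so the size of this share depended on the estimate. Its 2 nonsense-mediated decay models, of which Cacna1d-208 held nearly all, had 28.0% and 27.8% of counts and 14.6% and 14.1% of TPM in the first table, and 37.2% and 36.5% of counts and 21.3% and 21.6% of TPM in the second. The nonsense-mediated decay class is the annotation's prediction that a model with an early stop codon is degraded. An exonic stretch of 589 bases of Cacna1d is shared with Chdh on the opposite strand, which had 78 and 128 counts. The whole expected counts show no read divided between genes there. The strand setting of the counting is not given, so the strand of origin of these reads is uncertain. The same holds for 158 exonic bases of Cacna1h shared with Tpsg1, which had 1 and 0 counts, and for 435 of Cacna1a shared with Gm16183, which had 0 counts in both libraries.

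Retained-intron models also held 25.6% and 27.2% of the TPM of Cacna1e, 25.1% and 25.6% for Cacna1h and 23.3% and 23.8% for Cacna1a. Their shares of counts were 7.83% and 8.61%, 3.05% and 3.23%, and 6.24% and 6.81% in the same order. Total RNA can hold unspliced RNA, whose part in the retained-intron and other noncoding shares was not tested. Long models held 74.1% and 72.1% of TPM for Cacna1e, 70.7% and 67.2% for Cacna1h, 82.9% and 81.9% for Cacna1c, and 82.1% and 87.5% for Cacna1i. In each of these 4 genes they held over 90% of the counts.

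**Figure D2:**
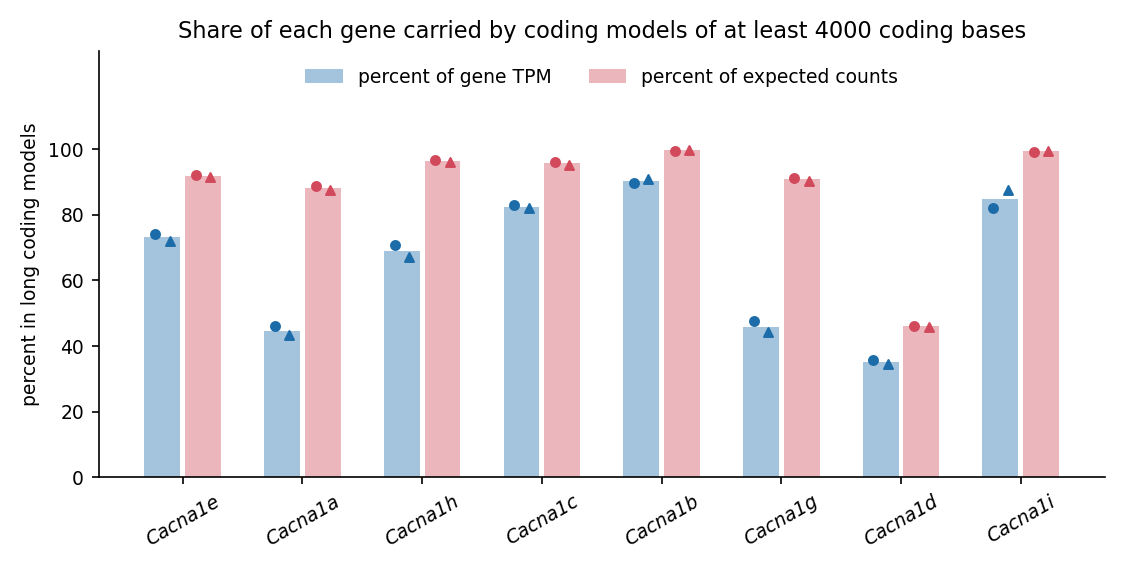
Percent of each gene's TPM and of its expected counts in the first transcript table (vertical axis) assigned to coding models of at least 4000 coding bases, with bars at the mean of 2 libraries, circles for replicate 1 and triangles for replicate 2. The shares of TPM lie below the shares of counts in all 8 genes, and Cacna1d is lowest on both measures, below 50%. In the second transcript table its share of counts was 54.3% and 54.1%.

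On long coding models alone the levels were lower and their order differed. Cacna1e stood at 67.90 TPM (replicate 1) and 66.38 TPM (replicate 2), and Cacna1a 38.98 and 38.42 TPM, so the gap between the R-type and the P/Q-type gene was 1.73-fold by means, against 1.06-fold when all models were summed. Cacna1h had 29.47 and 33.75 TPM, Cacna1c 28.96 and 30.11 TPM and Cacna1b 30.03 and 27.98 TPM, and neighbours among these 3 overlapped. Cacna1i, at 15.59 and 15.18 TPM, and Cacna1g, at 15.28 and 14.13 TPM, overlapped as well. Cacna1d was lowest, at 8.17 and 8.18 TPM, 8.21-fold below Cacna1e. The class shares hardly moved, with Cav2 at 58.4% and 56.7%, Cav3 at 25.7% and 26.9%, and Cav1 at 15.8% and 16.4%.

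The leading model was examined next, by its percent of the gene's TPM in the first transcript table and in the second. A leading transcript that differed between the tables in both libraries was found for 0 of the 8 genes, against 18.7% of 12225 genes with several transcripts and at least 1 TPM. In replicate 2 alone it differed for Cacna1b and Cacna1g, and in replicate 1 alone for Cacna1h. Cacna1e was carried mainly by Cacna1e-203, with 70.0% and 69.7% in replicates 1 and 2 of the first table and 61.2% and 62.1% in the second. Cacna1i was carried by Cacna1i-202, with 82.1% and 87.5% in the first and 76.4% and 77.5% in the second. These genes each had 1 dominant model by either estimate.

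Cacna1a-201, the leading model of the P/Q-type gene, held 44.4% and 40.8% in replicates 1 and 2 of the first table and 43.9% and 40.5% in the second. The leading model of Cacna1c was Cacna1c-207, with 40.0% and 39.1% in the first and 34.9% and 33.3% in the second, and that of Cacna1d was Cacna1d-207, with 24.3% and 26.6%, and 25.6% and 23.9%. Both L-type genes were spread over several models.

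The tables gave different shares for Cacna1h. Cacna1h-205 held 70.7% and 67.2% in replicates 1 and 2 of the first table and 14.6% and 33.5% in the second, and Cacna1h-201 held 0% and 0% in the first and 42.2% and 25.8% in the second. The sequence of Cacna1h-201 lies whole within that of Cacna1h-205, which is 10 bases longer, and their 7077 coding bases are identical. The division between these models therefore does not bear on the encoded protein. In the second table the leading model of Cacna1h differed between the libraries, as did that of 14.8% of the same genes. In the first table the leading model differed between libraries for 2 of the 8, Cacna1b and Cacna1g, against 12.5%. In Cacna1g it was the noncoding Cacna1g-212 in replicate 1, with 16.7%, and the coding Cacna1g-203 in replicate 2, with 24.4%. In the second table Cacna1g-212 led in both libraries, with 23.6% and 25.3%.

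Cacna1b was spread over 3 long models, Cacna1b-205, Cacna1b-204 and Cacna1b-202. They held 33.6%, 27.4% and 28.6% of TPM in replicate 1 of the first table and 31.8%, 33.3% and 25.9% in replicate 2. They differ in length and in short exons. Cacna1b-205 has 6987 bases, of which 6984 are coding. Cacna1b-204 has 9736 bases with 6975 coding, and Cacna1b-202 has 9655 bases with 6864 coding. The smallest of the short exons is 6 bases long, and another has 12 bases. Both are multiples of 3 and are shown in capitals with 15 bases of the flanking exons in lower case, on the minus strand of mm10, 5′ to 3′.

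Cacna1b 6-base exon, chr2:24642853-24642858: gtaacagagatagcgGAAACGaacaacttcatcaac
Cacna1b 12-base exon, chr2:24656711-24656722: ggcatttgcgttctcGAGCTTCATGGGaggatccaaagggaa

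The use of an exon is given here as the percent of the TPM of long models spanning it that include it. It is a sum over whole models, so reads anywhere along a model weigh on it. Reads over the exon itself were not counted. The 6-base exon was used in 62.5% and 65.1% in replicates 1 and 2 of the first table and in 55.0% and 55.7% in the second. The 12-base exon was used in 37.5% and 34.9% of the first and in 45.0% and 44.3% of the second. Each of the 5 long models of Cacna1b carries exactly 1 of these exons, so their shares sum to 100% and are not separate measurements. The longer Cacna1b-204 and Cacna1b-202 carry the 6-base exon and the shorter Cacna1b-205 the 12-base exon. The part of reads outside the coding bases in this split was not tested. A 108-base exon at chr2:24618255-24618362 was used in 68.1% and 71.6% of the first table and 64.0% and 70.5% of the second. It is absent from Cacna1b-202.

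Over the 8 genes, the long models held 45 optional exons or exon edges, in 7 genes. Both forms of a choice, such as the exons of a pair, were counted as separate entries, so the choices are fewer. Of the 45 entries, 21 were used at 10% to 90% in both libraries and both tables. They lay in 4 genes, Cacna1b, Cacna1c, Cacna1d and Cacna1g. Cacna1i has 1 long model and allowed no such comparison.

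In Cacna1c, models with only the upstream exon of the 84-base pair held 48.8% and 48.2% of TPM in replicates 1 and 2 of the first table, and those with only the downstream exon held 51.0% and 51.3%. In the second table these were 47.1% and 46.7% for the upstream and 52.8% and 52.5% for the downstream exon. Models with either exon of this pair thus held about equal TPM, in both libraries and by both estimates, which rest on the same models. For the 60-base pair, the upstream exon alone held 32.4% and 39.6% in the first table and 37.3% and 40.1% in the second, and the downstream exon alone 66.7% and 59.9% in the first and 62.0% and 58.6% in the second. The downstream exon led in all 4 values.

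For the 104-base pair of Cacna1c, the upstream exon alone held 66.3% and 58.9% in replicates 1 and 2 of the first table and 60.1% and 56.2% in the second. The downstream exon alone held 33.7% and 41.1% in the first and 39.9% and 43.8% in the second. In Cacna1d, the upstream exon of the matching pair held 2.8% and 0% in the first table and 2.1% and 2.7% in the second, and the downstream exon 97.2% and 100%, and 97.9% and 97.3%. Among long models the L-type genes thus differed in this choice, and every value of Cacna1c for the upstream exon lay above every value of Cacna1d. The long models of Cacna1d held only 46.2% and 45.8% of its counts in replicates 1 and 2 of the first table. In that table its upstream exon rested on Cacna1d-209, with 38.2 and 0 counts. The nonsense-mediated decay model Cacna1d-208, with 28.0% and 27.8% of counts, is left out, so the choice over the whole gene was not computed. No test was made, because shares of models are estimates from the same 2 libraries.

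The 3 pairs of Cacna1c are not separate measurements either, since a few models carry most of the TPM. Cacna1c-207 has the upstream 84-base, downstream 60-base and upstream 104-base exons. Cacna1c-216, with 26.6% and 31.4% of the gene's TPM in replicates 1 and 2 of the first table, has the opposite exon of each pair. Cacna1c-203, with 15.1% and 9.15%, has the downstream 84-base exon with the exons of Cacna1c-207 at the other pairs. These models also differ in length. Cacna1c-207 has 13162 bases with 6507 coding, Cacna1c-216 has 7338 with 6492 coding, and Cacna1c-203 has 7631 with 6417 coding. The part of reads outside the coding bases in the shares of the pairs was not tested. A 75-base exon at chr6:118715903-118715977 was used in 33.5% and 40.7% of the first table and 39.7% and 43.1% of the second.

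In Cacna1d, a 45-base exon at chr14:30082952-30082996 and a 60-base exon at chr14:30129789-30129848 are carried by Cacna1d-207 alone among its 5 long models. Both were used in 68.2% and 77.1% in replicates 1 and 2 of the first table and 62.0% and 57.0% in the second. The libraries thus stood in the opposite order in the other estimate.

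**Figure D3:**
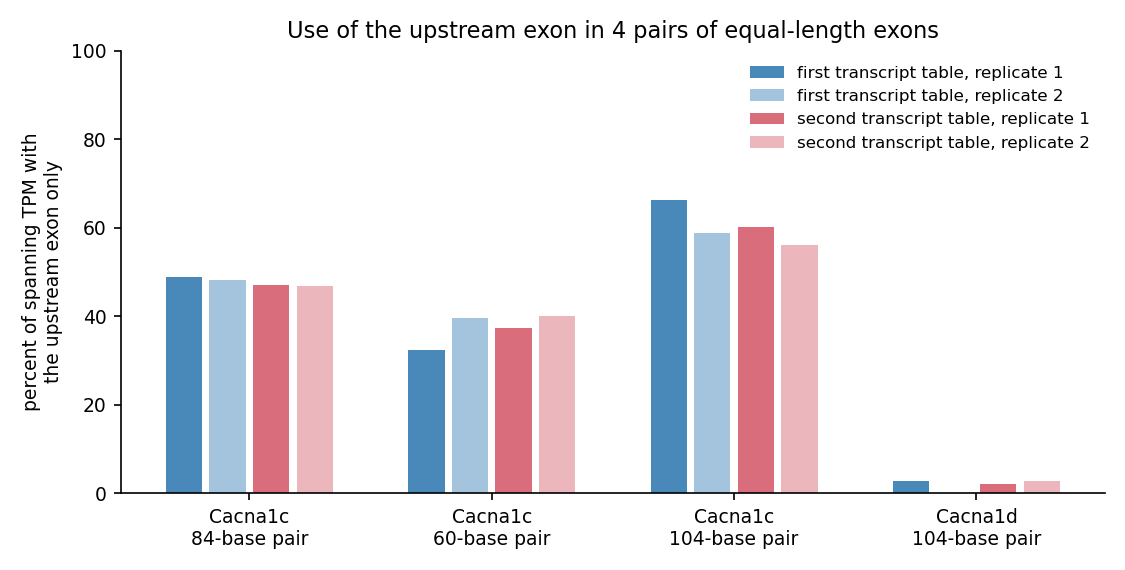
Percent of the TPM of spanning long models that carry only the upstream exon (vertical axis) of each pair of equal-length exons, by transcript table and replicate. The 12 values of Cacna1c lie between 32.4% and 66.3% and the 4 of Cacna1d between 0% and 2.8%.

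Cacna1g had the exon choice that differed most between the libraries in the first table. The longer form of an exon, at chr11:94425764-94425977 with 214 bases, was used in 45.3% in replicate 1 and 20.6% in replicate 2, and the shorter form of 193 bases in 54.7% and 79.4%. In the second table the longer form was used in 46.1% and 43.7%, so the difference between libraries was not present in that estimate. A 69-base exon at chr11:94439709-94439777 was used in 64.7% and 77.1% of the first table and 57.4% and 57.7% of the second. A 135-base and a 144-base exon, both carried by the same model, were used in 18.8% and 11.8% of the first table and 19.1% and 17.3% of the second. Single models of this gene held few reads, with 678 and 1347 counts for Cacna1g-203 and 666 and 392 for Cacna1g-201.

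The libraries were compared gene by gene with an exact two-sided binomial test on scaled counts, which compares these libraries and no condition. At an adjusted p under 0.05 and at least 1.5-fold, 0 of the 8 pore genes were called apart, against 346 of 18270 genes (1.89%) and 0.169% of those with a mean count of at least 2000. At an adjusted p under 0.05 without the fold minimum, 2 of 8 passed, against 2078 of the 18270 genes (11.4%) and against 30.2% of the 2954 genes with a mean count of at least 2000, to which all 8 belong. Both were lower in replicate 1, as were 6.64% of all genes tested, while 4.73% were higher. At an unadjusted p under 0.05 the count was 3, Cacna1b being the additional one (exact binomial p = 0.0265, adjusted p = 0.154), against 21.8% of all genes tested and 43.5% of the 2954 high-count genes. The median size of the log2 ratio was 0.05 for the 8 genes, 0.05 for genes with at least 2000 counts and 0.11 for all genes tested.

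Cacna1h was lower in replicate 1. Its log2 ratio, replicate 1 over replicate 2, was -0.23, a ratio of 0.852 (95% interval of the exact binomial share 0.821 to 0.884; adjusted p = 2.99e-15). Cacna1c was also lower in replicate 1, at -0.09 on the same log2 scale, a ratio of 0.939 (0.908 to 0.972; exact binomial test, adjusted p = 0.00551). Both ratios lie well inside the 1.5-fold limit. The other 6 had log2 ratios between -0.04 (Cacna1d) and 0.07 (Cacna1g), with adjusted p of 0.154 to 0.902 by the same exact test.

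Cell type markers also moved between the libraries. All 5 dentate granule markers had lower counts in replicate 1, with a median log2 ratio of -0.35, and Dsp was called apart. All 5 CA1 markers were higher in replicate 1, with a median of 0.25 and none called. The 5 CA3 markers had a median of -0.09, with 2 higher and 3 lower in replicate 1. At an adjusted p under 0.05 without the fold minimum, 4 of 5 dentate, 5 of 5 CA1 and 0 of 5 CA3 markers passed the exact binomial test. Of all genes tested 11.4% passed, and 1.89% were called with the fold minimum. Of the 7 choroid plexus markers, 6 were called, all higher in replicate 2. The 4 astrocyte markers, all higher in replicate 2 by scaled counts and none called, summed to 676.72 TPM in replicate 1 and 680.49 TPM in replicate 2. By TPM, Aldoc was higher in replicate 1, at 354.12 against 341.67. The 4 thalamus markers summed to 26.03 and 28.71 TPM. The 6 interneuron markers, all higher in replicate 1 and none called, summed to 410.31 and 373.41 TPM. The 4 oligodendrocyte markers summed to 992.02 and 973.54 TPM, with Opalin called higher in replicate 1. Microglia (59.56 and 60.94 TPM over 3 genes), endothelial (64.19 and 62.49 TPM over 3) and mural markers (38.46 and 33.04 TPM over 4) had no gene called. The part of these in the values of Cacna1h and Cacna1c was not tested.

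**Figure D4:**
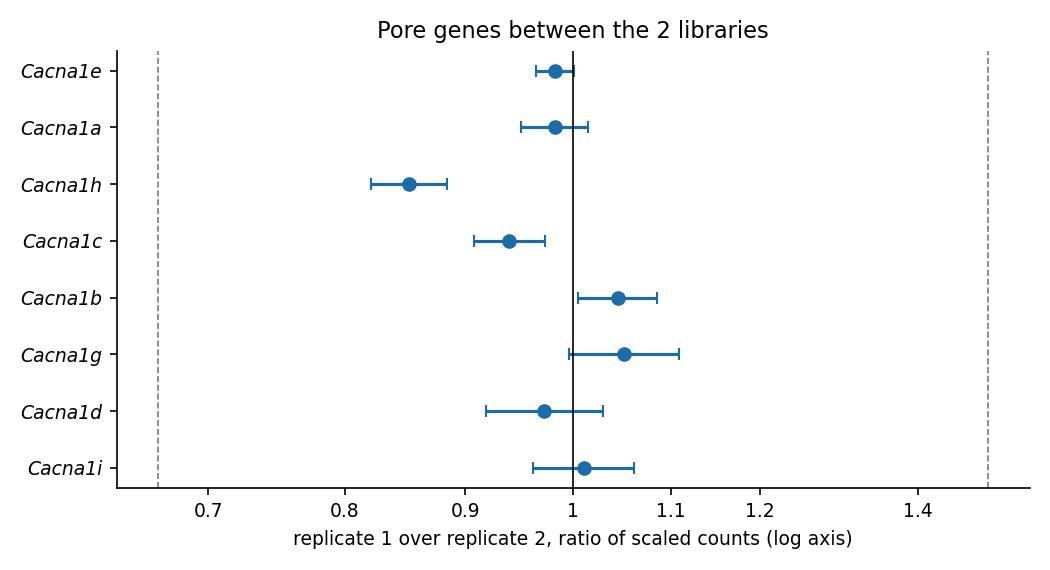
Ratio of scaled counts of replicate 1 over replicate 2 (horizontal log axis) for the 8 pore genes, with exact 95% intervals for counting error. The solid line is at 1 and the dashed lines mark 1.5-fold, and all 8 intervals lie inside the dashed lines.

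The second transcript table, which estimates the same libraries in another way, gave higher TPM for all 8 genes, as for most genes. The gene table over the second table was between 0.545 and 0.713 for the 8, and the median over all genes tested was 0.584 in replicate 1 and 0.572 in replicate 2. A ratio at least 1.5-fold below 1 in both libraries was met by 4 of 8 (Cacna1a, Cacna1c, Cacna1e and Cacna1h), against 76.3% of 18811 genes in that direction and 79.5% in either. With protein-coding transcripts only it was met by 6 of 8, Cacna1d and Cacna1g being added, against 75.4% of 13485 genes, and at 2-fold by 0 of 8, against 27.1%. After division by the median ratio of each library, 0 of 8 were 1.5-fold apart, against 17.3%. The order of the 8 genes by mean was the same in both tables, with the ranges of Cacna1e, at 146 and 148 TPM, and Cacna1a, at 139 and 150 TPM, overlapping in the second.

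The remaining pore genes of the family were at or near 0. Cacna1s, the pore of skeletal muscle, had 13 counts in replicate 1 and 11 in replicate 2 and stayed at 0.50 and 0.47 TPM. Cacna1f, the pore of retinal photoreceptors, had 2 and 0 counts. Nalcn, a related sodium leak channel, had 26.28 and 25.95 TPM, between the levels of Cacna1g and Cacna1d.

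Of the 4 alpha2delta genes, which encode the extracellular subunit bound by gabapentin in some members, 3 exceeded 1 TPM in both libraries. Cacna2d1 stood at 62.28 TPM (replicate 1) and 61.74 TPM (replicate 2), and Cacna2d3 had 43.38 and 40.60 TPM. Cacna2d4 was at 0.84 and 0.31 TPM. All 4 beta genes, which encode the cytoplasmic subunit, were expressed, led by Cacnb3, at 78.05 and 81.47 TPM, and Cacnb1, at 57.46 and 53.20 TPM. In sum the beta genes reached 205.85 and 202.93 TPM, against 360.58 and 371.43 TPM for the 8 pore genes.

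Of the 8 gamma genes, 6 exceeded 1 TPM in both libraries, led by Cacng8, at 166.81 TPM in replicate 1 and 160.69 TPM in replicate 2, and Cacng7, at 54.18 and 51.62 TPM. Cacng8 is known mainly as an auxiliary subunit of AMPA receptors in the hippocampus. Cacng6 was at 0.49 and 0.59 TPM. Cacng1, the gamma subunit of skeletal muscle, had 0 counts in both libraries, and a count of 0 allows up to 3. No gene of these 3 subunit lists was called apart between the libraries, against 1.89% of all genes tested. At an adjusted p under 0.05 without the fold minimum, 1 of 4 alpha2delta, 1 of 4 beta and 0 of 7 gamma genes tested passed the exact binomial test. Of all genes tested 11.4% passed, and of those with a mean count of at least 2000, 30.2%.

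**Figure D5:**
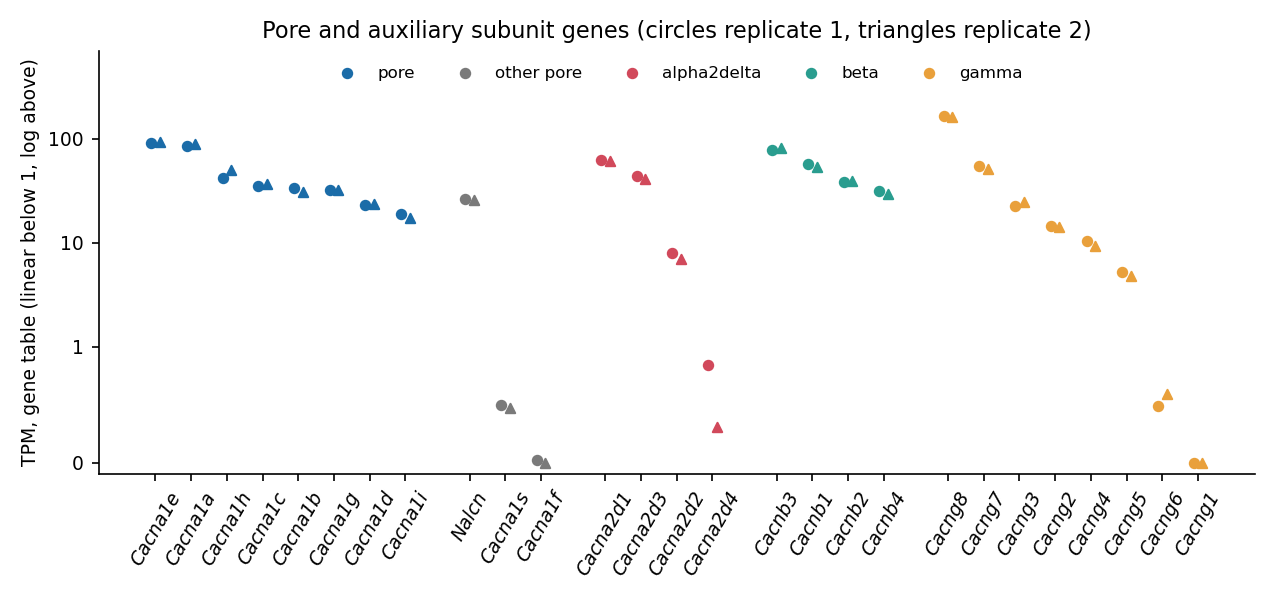
TPM in the gene table (vertical axis, linear below 1 and logarithmic above) of the pore genes, other pore genes and the alpha2delta, beta and gamma subunit genes, with circles for replicate 1 and triangles for replicate 2. Cacng8 is highest, and Cacna1s, Cacna1f, Cacna2d4, Cacng6 and Cacng1 lie below 1 TPM.

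The other fixed lists were the partners of the channels. All 11 genes of the release site exceeded 1 TPM, the highest being Snap25, a membrane fusion protein, at 819.64 TPM in replicate 1 and 765.85 TPM in replicate 2, and Syt1, the calcium sensor of release, at 411.15 and 367.73 TPM. The scaffold genes Rims1, at 103.14 and 100.31 TPM, and Rimbp2, at 51.69 and 51.57 TPM, which link Cav2 channels to vesicles, were named after their values were seen. All 6 genes of calmodulin and calcium sensors exceeded 1 TPM, led by Calm2, at 873.40 and 838.45 TPM, and Calm3, at 819.10 and 812.95 TPM, whose expected counts were not whole.

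Of the calcium-activated potassium channels, all 5 exceeded 1 TPM, led by Kcnma1, the large-conductance channel, at 63.15 TPM in replicate 1 and 59.68 TPM in replicate 2, and Kcnn2, at 49.75 and 48.11 TPM. Of the 6 intracellular calcium release channels, 5 exceeded 1 TPM in both libraries, led by Itpr1, at 123.99 and 117.27 TPM, and Ryr2, at 100.63 and 105.01 TPM. None of these 28 genes was called apart between the libraries, against 1.89% of all genes tested and 0.169% of those with a mean count of at least 2000. At an adjusted p under 0.05 without the fold minimum, 7 of the 11 release-site genes, 2 of 6 sensors, 2 of 5 potassium channels and 3 of 6 release channels passed the exact binomial test, against 11.4% of all genes tested and 30.2% of those with a mean count of at least 2000.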

How the data were processed

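Each of the 2 libraries came with 3 tables, made against mm10 and GENCODE M21 according to a text file deposited with them. The authors deposited, for every gene, its expected count, its TPM and a posterior standard deviation of the count, which served here only to mark shared reads. In a first transcript table the authors gave the same for transcripts, and the percent of the gene's abundance that each one holds. Per the file headers both have RSEM-type columns. In a second transcript table the authors deposited an estimated count and a TPM for every transcript, under kallisto-type columns per the file headers. Program versions, aligner and strandedness are not given in the sources used. TPM was scaled over all entries, per the sums of the deposited columns. ERCC transcripts held 0.421% and 0.408% of counts in replicates 1 and 2 and stayed out of tests.

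The members, gene lists and tests were chosen with earlier results of these data known. Expected counts were rounded, scaled by TMM, a trimmed mean of log ratios (edgeR 4.0.16, R 4.3.3), and compared with an exact binomial test (scipy 1.17.1), adjusted by Benjamini-Hochberg over 18270 genes with a mean count of at least 10. Ratios are replicate 1 over replicate 2 with 0.5 added to the counts. Intervals are exact 95% Clopper-Pearson intervals and cover counting error only, because the binomial model has no term for variation between animals or library preparations. PCR copies cannot be told from molecules in these tables and are counted as separate reads. The procedure was tested on simulated data. Alternatives covered the scaling, the filter on low counts, the table, the models summed and the fold minimum. Named were all 8 members, the highest 2 genes of each subunit and partner list with those under 1 TPM or called apart, and transcripts with at least 10% of gene TPM in either table. Of 32 such transcripts, those the results turn on are given. Exon use was computed over protein-coding models of at least 4000 coding bases, a limit chosen after seeing the data. Proteins were aligned with Biopython 1.88 and the BLOSUM62 matrix. Reads of the CAST/EiJ allele were counted against a C57BL/6J reference, and the effect of this was not tested.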

Additional observations from a re-analysis of the deposited data

How the results depend on the processing

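Over the 9 settings of the comparison between libraries, 0 of the 8 pore genes were called apart except without a fold minimum, where 2 were. Of all genes tested, 1.89% were called in the main setting and 11.4% without the fold minimum. With ERCC totals as scale, the log2 ratio of Cacna1i turned to -0.024 and Cacna1e passed the p threshold (exact binomial test, log2 ratio -0.06, adjusted p = 6.19e-05). Mean TPM in the second transcript table was 144.5 (Cacna1a), 52.4 (Cacna1b), 64.1 (Cacna1c), 33.1 (Cacna1d), 147.2 (Cacna1e), 48.0 (Cacna1g), 82.1 (Cacna1h) and 27.7 (Cacna1i). Rescaled over protein-coding genes, the means in that gene order were 196.9, 73.0, 81.4, 53.0, 208.7, 72.9, 104.5 and 41.2 TPM, and on long coding models, an alternative added after seeing the data, 38.7, 29.01, 29.5, 8.2, 67.1, 14.7, 31.6 and 15.4 TPM. The share of counts in long models was 88.2%, 99.6%, 95.7%, 46.0%, 91.8%, 90.8%, 96.4% and 99.4%. By expected counts, Cav2 held 62.9% and Cav3 20.8%, and over protein-coding transcripts Cav1 held 15.5% and Cav3 27.6%. Between tables, 0 of 8 were apart at 2-fold (27.1% of all genes tested) and 0 after centring (17.3%). At a minimum of 5 TPM 4 were apart (10244 of 12701 genes), and over protein-coding transcripts only 6 (75.4%). As reported it was 4 (79.5%). In the second table the leading shares were 38.9% for Cacna1b-205, 34.1% for Cacna1c-207, 61.7% for Cacna1e-203, 24.0% for Cacna1h-205 and 77.0% for Cacna1i-202. The causes of these shifts were not tested, apart from the scale itself.

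Without replicate 1 or replicate 2, each mean is the value of the library kept, as given above. The binomial test needs both libraries and was not run without one. No paired analysis was possible because there is only 1 group. Each pore gene had at least 2351 counts in each library, so the limits lie in the 2 libraries and in the division of reads among models, where Cacna1g-212, for example, had 75.6 and 93.6 counts in replicates 1 and 2.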
